A study of Homo sapiens with 60 samples.

Results

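Transcripts of the 26S proteasome were followed in HepG2 cells, a human hepatocellular carcinoma line, exposed for 24 h to 70% ethanol extracts of medicinal herbs and herbal formulas. The 31 genes were taken by subunit name, and the set was picked for description with earlier results of these data known. They are PSMA1 to PSMA7 and PSMB1 to PSMB7, the 14 subunits of the core particle, and PSMC1 to PSMC6 with PSMD1, PSMD2, PSMD3, PSMD4, PSMD6, PSMD7, PSMD8, PSMD11, PSMD12, PSMD13 and PSMD14, 17 subunits of the regulatory particle. They are 31 of the 60675 gene IDs counted, and all 31 passed the filter on low counts; the lowest count of any of them in any library was 702.

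The series holds 60 RNA-seq libraries in 25 groups. The vehicle group received 0.1% DMSO per the sample labels (the design text gives 2%), and its 3 libraries carry a set label of their own. Polygalae Radix was given at 250, 50 and 10 ug/mL and Aucklandiae Radix at 280, 56 and 11.2 ug/mL, with 2 libraries a dose, in the set labelled 11. Menthae Herba and Saposhnikoviae Radix (set 12) and Saengmaek-san and Guibi-tang (set 13) were given at 500, 100 and 20 ug/mL with 3 libraries a dose. Soyo-san and Okbyeongpung-san (set 14) had the same doses, with 2 libraries and 1 library a dose. The doses of each extract are called high, medium and low below. The high dose was the concentration that inhibited the cells by 20% or, where none did, 500 ug/mL, so high doses of different extracts are not matched. Nothing in the labels says that replicates are separate cultures. If they are not, the p-values cover technical spread alone.

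Depth ran from 17518479 to 38905899 counts a library, with a median of 23674002. Hepatocyte markers were present in every library (ALB from 3266 to 10481 CPM, a counts-per-million scale), while HBB and DCN were at 0 in all and PTPRC and CD3E were at or near 0. The blood list summed to 562 to 1664 CPM, nearly all of it LYZ, and the endothelial and stromal lists to at most 6.36 and 2.48 CPM. Groups did not share all features of the libraries. Against the other libraries, log2 levels tilted with the GC content of the transcript by 0.08 to 0.22 for each 10 points of GC in the vehicle libraries. The tilt was 0.13 in Polygalae Radix high replicate 2 and 0.18 in Polygalae Radix medium replicate 2. It ran the other way at the high dose of Aucklandiae Radix (-0.09 and -0.07). The same held for Polygalae Radix high replicate 3 (-0.08), Saposhnikoviae Radix medium replicate 1 (-0.10) and Guibi-tang high replicate 2 (-0.06). Mitochondrial transcripts took 15.8 to 19.1% of the counts in vehicle, 17.5 to 17.7% at the high dose of Polygalae Radix, 8.02 to 8.17% at that of Aucklandiae Radix and 10.1 to 14.9% in all other groups. Each extract's high dose was therefore set first against its own low dose, from the same labelled set, and then against vehicle. In Polygalae Radix and Aucklandiae Radix the mitochondrial share still differs between those 2 doses. Treatment and technique cannot be told apart there.

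The 26S proteasome degrades proteins marked with ubiquitin chains. Its core particle is a barrel of outer rings of alpha subunits (PSMA genes), which gate the entrance, and inner rings of beta subunits (PSMB genes), of which PSMB5, PSMB6 and PSMB7 carry the chymotrypsin-like, caspase-like and trypsin-like sites. The regulatory particle caps the barrel. Its ATPases (PSMC genes) unfold the substrate, the scaffold proteins PSMD1 and PSMD2 hold the base, PSMD4 binds ubiquitin chains, and the lid holds PSMD14, the deubiquitinase that removes the chain before degradation. The transcription factor NFE2L1 is known to raise proteasome subunit genes together when the proteasome is impaired, through antioxidant response elements in their promoters, and NFE2L2 reads the same element. In liver cells the immunoproteasome subunits PSMB8, PSMB9 and PSMB10 can replace the constitutive catalytic subunits under interferon.

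Promoter windows of RefSeq on GRCh38.p14, 250 bases before to 50 after a start site, were found for 26 of the 31 genes (32 windows). PSMA7, PSMB1, PSMB6, PSMB7 and PSMD4 had none in the table used. The letters TGACNNNGC, the core of the antioxidant response element, stood on either strand in 7 of 32 windows of members (21.9%) and in 13.3% of 34796 windows of all genes, of the same length. They were found for PSMA4, PSMB3, PSMC4, PSMC5, PSMD1, PSMD3 and PSMD12. CCAAT was in 15 of 32 windows of members (46.9%) against 34.6% of all windows, and GAANNTTC, part of a heat shock element, in 0 of 32 against 6.79%. A match is a string of letters and not a measured binding site. The 3 members whose match lay before both the RefSeq start and the annotated gene are printed, with PSMC1 as a member without a match that was among those most raised by Aucklandiae Radix. PSMC1 was thus picked by its change in these data, so setting it against the other 3 tests nothing about the letters. Each runs 5′ to 3′ on the strand of its gene, up to where the annotated gene begins, and capitals mark TGACNNNGC and CCAAT on either strand. PSMD12 is the 200 bases at chr17:67366628-67366827 (minus strand), PSMD3 the 240 bases at chr17:39980557-39980796, PSMB3 the 245 bases at chr17:38752491-38752735 and PSMC1 the 192 bases at chr14:90256303-90256494 (all plus strand).
PSMD12: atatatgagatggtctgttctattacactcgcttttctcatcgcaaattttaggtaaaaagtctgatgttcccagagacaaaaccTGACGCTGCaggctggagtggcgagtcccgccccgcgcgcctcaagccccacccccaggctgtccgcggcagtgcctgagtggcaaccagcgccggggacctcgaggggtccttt
PSMD3: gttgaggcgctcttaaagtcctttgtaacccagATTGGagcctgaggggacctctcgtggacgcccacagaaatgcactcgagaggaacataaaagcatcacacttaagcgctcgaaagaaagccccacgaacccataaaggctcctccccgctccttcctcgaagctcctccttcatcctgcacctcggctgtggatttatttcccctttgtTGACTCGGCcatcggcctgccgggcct
PSMB3: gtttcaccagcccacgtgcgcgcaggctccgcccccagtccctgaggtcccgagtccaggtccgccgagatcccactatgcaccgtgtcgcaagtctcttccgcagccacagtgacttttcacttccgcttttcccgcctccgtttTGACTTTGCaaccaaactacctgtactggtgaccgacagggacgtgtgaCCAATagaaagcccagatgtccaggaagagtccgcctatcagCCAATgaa
PSMC1: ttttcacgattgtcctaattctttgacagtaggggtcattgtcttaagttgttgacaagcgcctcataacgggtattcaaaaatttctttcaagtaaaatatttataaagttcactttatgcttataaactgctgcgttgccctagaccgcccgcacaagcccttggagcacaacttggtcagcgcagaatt

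In vehicle, the members' levels per kilobase of transcript ran from 21.6 CPM per kb for the alpha subunit PSMA5 to 297 for PSMB5, with a median of 86.6. PSMD12, a lid subunit, was next to the bottom at 23.8 CPM per kb, and PSMA6 and PSMA7 followed PSMB5 at 279.6 and 187. Transcript length is the median over a gene's annotated protein-coding transcripts, not that of the expressed form, and this order depends on it. By CPM alone PSMA2 was lowest at 33.1 and PSMB5 highest at 267. Summed over the 14 genes, the core particle stood at 1587 ± 47.0 CPM (SD, n = 3) and the 17 genes of the regulatory particle at 1888 ± 32.9 CPM (SD, n = 3). At the high dose of Polygalae Radix the sums were 1129 ± 39.4 CPM (SD, n = 2) and 1164 ± 11.1 CPM (SD, n = 2), against 1950.1 ± 29.1 CPM (SD, n = 2) and 1979.6 ± 12.5 CPM (SD, n = 2) at its low dose. At the high dose of Aucklandiae Radix they were 2509.7 ± 62.9 CPM (SD, n = 2) and 3046 ± 10.3 CPM (SD, n = 2), against 2002 ± 42.2 CPM (SD, n = 2) and 2014 ± 25.9 CPM (SD, n = 2) at the low dose. Both sums therefore lay lowest with Polygalae Radix and highest with Aucklandiae Radix, and in neither extract did the high and low doses overlap. CPM here is of the library size scaled by the trimmed mean of M-values. It is a share of the pooled RNA, so it cannot tell fewer proteasome transcripts from more of other RNA, nor a change in every cell from one in part of the cells.

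**Figure D1:**
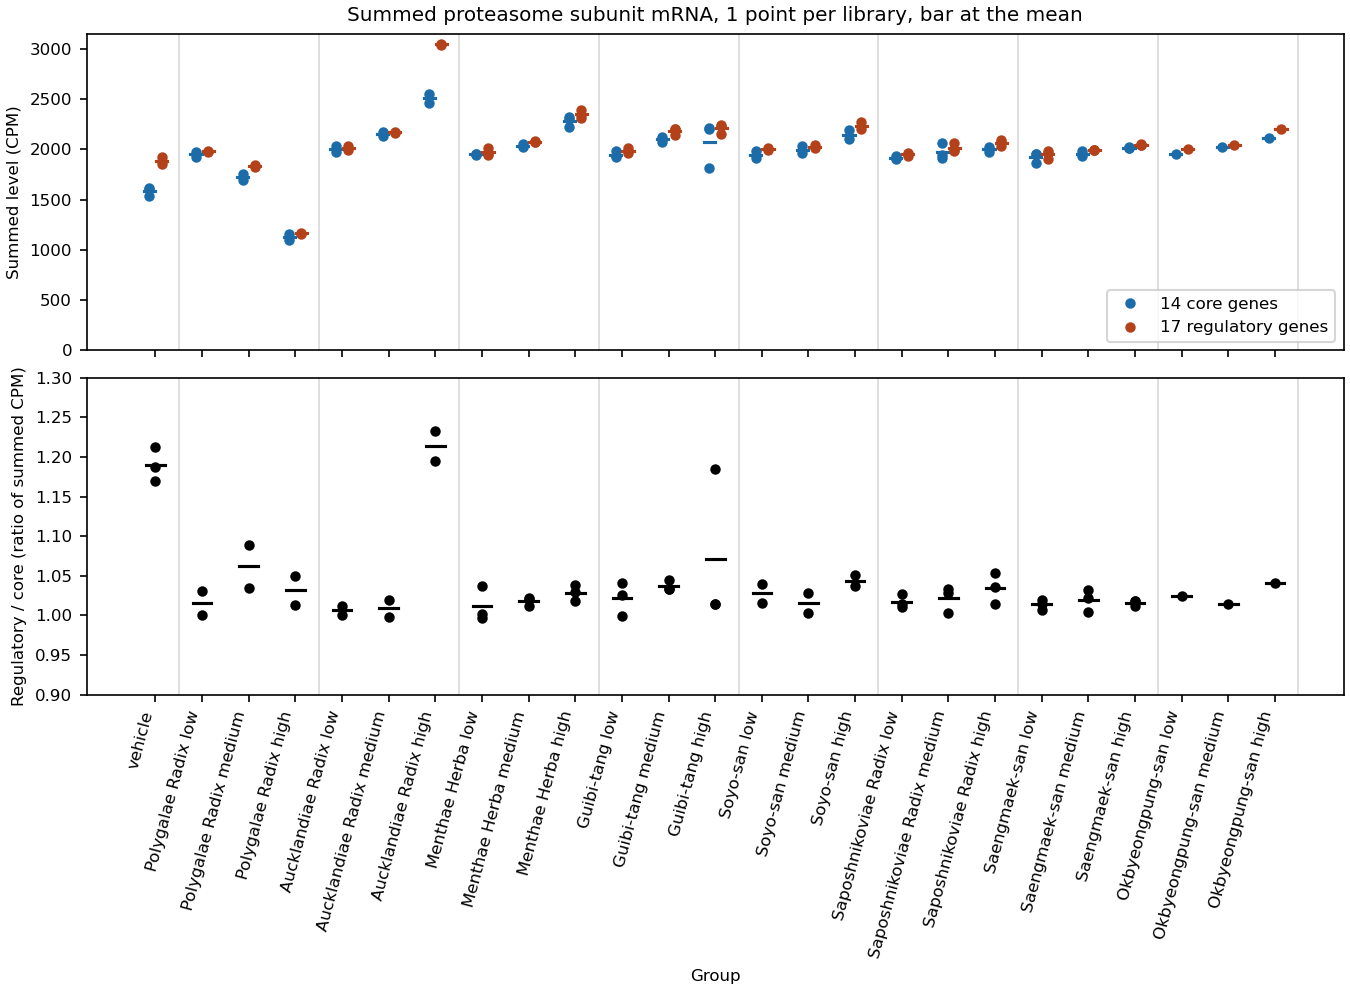
Summed CPM of the 14 core and 17 regulatory particle genes, and their ratio, with 1 point per library and the groups on the x axis. Totals were lowest at the high dose of Polygalae Radix and highest at the high dose of Aucklandiae Radix, and the ratio of regulatory to core lay near 1.2 in vehicle and at the high dose of Aucklandiae Radix and between 1.00 and 1.09 in nearly all other libraries.

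Polygalae Radix lowered nearly the whole set. At 250 ug/mL against 10 ug/mL, 30 of 31 members fell and none rose (edgeR quasi-likelihood test, Benjamini-Hochberg adjusted p under 0.05), 28 of them by at least 0.5 on the log2 scale, where 1 is a 2-fold change. The median log2 change of the members was -0.83, -0.84 for the core and -0.75 for the regulatory particle, beside -0.01 over the 16982 genes tested. Of all genes, 64.1% were called in this comparison, 33% lower and 31.1% higher, and 22.8% were lower past 0.5.

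The scaffold gene PSMD1 (chr2:231056864-231172827) was at 231 and 219 CPM at the low dose, 201 and 188 at the medium and 87.9 and 94.0 at the high dose, with vehicle at 235, 233 and 223. Both high-dose libraries lay far below every other one. PSMD1 fell by 1.32 ± 0.05 (SE, adjusted p = 1.0e-25). Its partner PSMD2 (chr3:184298709-184309054) stood at 235 and 247 CPM at the low dose and 101 and 94.9 at the high dose. It fell by 1.31 ± 0.05 (SE, adjusted p = 8.6e-26), and these were the largest decreases among the members. The ATPase gene PSMC4 (chr19:39971005-39981441) went from 110.2 and 110.4 CPM to 50.0 and 49.5, and fell by 1.16 ± 0.05 (SE, adjusted p = 5.6e-24). PSMD4, the ubiquitin receptor (chr1:151254703-151267479), went from 93.0 and 93.7 CPM to 45.9 and 42.7 and fell by 1.08 ± 0.05 (SE, adjusted p = 1.1e-22).

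The 3 catalytic subunits fell to different extents. PSMB7 (chr9:124353466-124415444) was at 102 and 105 CPM at the low and 56.5 and 53.5 at the high dose, a fall of 0.92 on the log2 scale (adjusted p = 1.6e-16). PSMB6 (chr17:4796144-4798503) was at 85.6 and 84.8 and 48.6 and 46.7 CPM, and fell by 0.84 (adjusted p = 7.6e-15). PSMB5 (chr14:23016543-23035230) was at 328 and 321 and 231 and 226 CPM and fell by 0.51 ± 0.06 (SE, adjusted p = 1.2e-09). Among the other core genes the decreases ran from 0.50 for PSMA1 to 1.18 for PSMB3, and all 7 alpha and all 7 beta genes were called lower.

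The lid was uneven. PSMD12 (chr17:67337916-67366627) was the 1 member not called, at 101 and 101 CPM at the low and 97.3 and 113 at the high dose (log2 change 0.05, adjusted p = 0.47). The ATPase gene PSMC6 had the smallest called decrease, 0.19 (adjusted p = 0.004). PSMD6, a lid subunit (chr3:64010549-64024010), was at 62.4 and 61.3 and 46.1 and 51.6 CPM and fell by 0.35 ± 0.06 (SE, adjusted p = 5.4e-07). PSMD14 (chr2:161308038-161411717) was at 84.5 and 83.8 and 55.8 and 61.3 CPM and fell by 0.53 (adjusted p = 1.1e-10).

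Against vehicle, the high dose of Polygalae Radix had 27 members lower and 2 higher, with a median log2 change of -0.60, where 33.8% of all genes were lower and 33.1% higher. PSMD12 was higher by 0.36 ± 0.06 (SE, adjusted p = 1.3e-07) and PSMC6 by 0.17 ± 0.05 (SE, adjusted p = 0.0054). The low doses of the tested extracts already lay above vehicle by 0.29 to 0.35 for PSMD12 and 0.30 to 0.37 for PSMC6. These 2 values are therefore not rises with dose. The PSMC6 call ended, and its sign turned, when the GC trend was removed (log2 change -0.02). PSMD6 (-0.13) and PSMD14 (-0.16) lost their calls without vehicle replicate 1 or without Polygalae Radix high replicate 2. At the medium dose against the low dose, 10 members fell and none rose (all genes, 5.09% lower and 3.33% higher), from 0.17 for PSMC6 to 0.32 for PSMA6. That count was 3 without Polygalae Radix low replicate 2, and 4 without low replicate 3 or medium replicate 2. Hepatocyte markers moved with these decreases: 8 of 9 fell and 1 rose at the high dose against the low dose, and the list summed to 16605 to 20312 CPM against 47271 to 48596 CPM. Their part in the result was not tested.

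**Figure D2:**
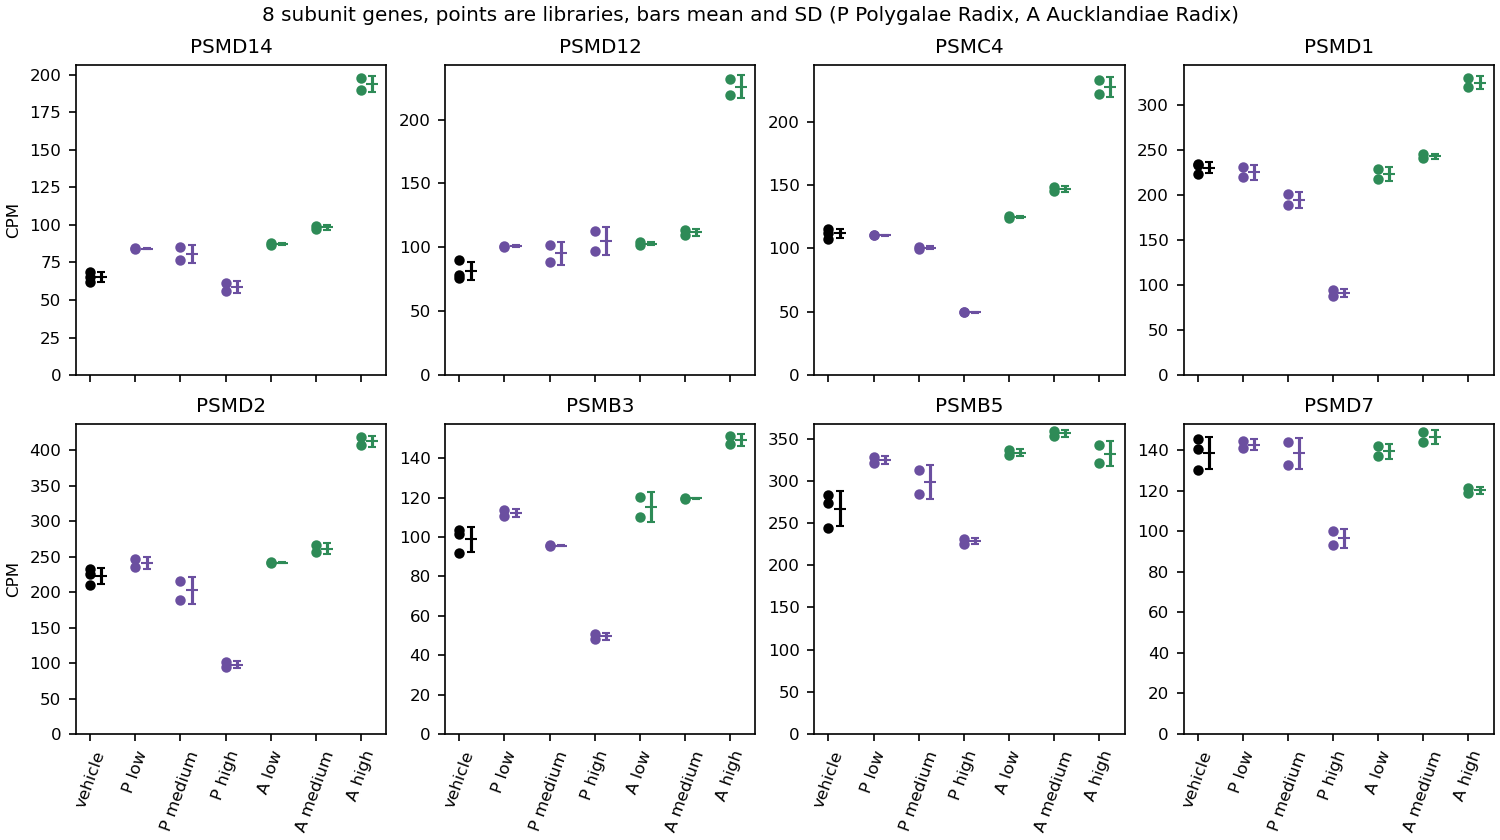
CPM of 8 members in every library of vehicle, Polygalae Radix and Aucklandiae Radix, with 1 panel per gene, 1 point per library and dose on the x axis. PSMD1, PSMD2 and PSMB3 drop at the high dose of Polygalae Radix, PSMD14 and PSMD12 rise at the high dose of Aucklandiae Radix, and PSMB5 and PSMD7 do not rise there.

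Aucklandiae Radix raised most members of both particles. At 280 ug/mL against 11.2 ug/mL, 21 members rose and 1 fell, 15 of them rising by at least 0.5, with a median log2 change of 0.48 beside -0.02 over all genes. Of all genes 33.9% were higher and 35.5% lower, and 24.8% were higher past 0.5. In the regulatory particle 12 of 17 members rose, all 12 past 0.5, with a median of 0.72. In the core 9 of 14 rose, 3 of them past 0.5, with a median of 0.30. The count of called members was 20 to 22 when any library was left out.

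PSMD14, the deubiquitinase, was at 87.8 and 86.5 CPM at the low dose, 97.1 and 99.5 at the medium and 197 and 189.6 at the high dose, with vehicle at 68.4, 65.0 and 62.1. The high-dose libraries lay above all others, at 2.21-fold the low dose. PSMD14 rose by 1.15 ± 0.06 (SE, adjusted p = 1.7e-22). PSMD12 was at 102 and 104 CPM at the low and 232 and 219 at the high dose, and rose by 1.13 ± 0.06 (SE, adjusted p = 9.3e-22). Among the ATPases, PSMC1 went from 78.5 and 84.7 to 160.1 and 161 CPM and rose by 0.97 (adjusted p = 1.2e-18). PSMC4 went from 124 and 125 to 221 and 233 CPM and rose by 0.86 (adjusted p = 1.6e-20). The ATPases PSMC2 (0.86) and PSMC6 (0.55) also rose, while PSMC3 was at 0.04 (adjusted p = 0.62) and PSMC5 at -0.06 (adjusted p = 0.31). The scaffold genes PSMD2 (0.77) and PSMD1 (0.54) rose as well.

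Members of the same particle thus differed at the same dose. PSMD7, a lid subunit (chr16:74296775-74306288), was the 1 member that fell: it was at 137 and 142 CPM at the low, 149 and 144 at the medium and 119 and 121 at the high dose. It fell by 0.22 ± 0.05 (SE, adjusted p = 0.00025), and its high-dose libraries also lay below all 3 vehicle libraries. PSMD4 was at 89.0 and 91.2 CPM at the low and 90.5 and 93.7 at the high dose (log2 change 0.03, adjusted p = 0.65). The catalytic genes spread widely. PSMB7 rose from 106 and 110.1 to 179 and 181 CPM, by 0.73 ± 0.06 (SE, adjusted p = 3.5e-14). PSMB6 rose from 87.6 and 93.9 to 106 and 107 CPM, by 0.23 ± 0.07 (SE, adjusted p = 0.0016). PSMB5 was at 330.4 and 337 and 322 and 343 CPM, and the doses overlapped (log2 change -0.01 ± 0.06 SE, adjusted p = 0.89). PSMB2 had the smallest called increase, 0.13 ± 0.05 (SE, adjusted p = 0.021), a call that ended without the filter on low counts, with the GC trend removed, and without any of 3 libraries.

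Against vehicle, 27 members were higher and 1 lower at the high dose of Aucklandiae Radix, 19 of the 27 past 0.5, with a median of 0.79 (all genes, 26.7% higher past 0.5, 36.6% higher and 36.7% lower). PSMD14 was higher by 1.57, PSMD12 by 1.47 and PSMD13 by 1.21. Part of each value was present at the low doses of the tested extracts, which lay above vehicle by 0.34 to 0.44, 0.29 to 0.35 and 0.27 to 0.33 for these 3 members. At the medium dose against the low dose 3 members rose and none fell (all genes, 2.32% higher): PSMC2 by 0.24, PSMC4 by 0.23 and PSMD13 by 0.19. No member was called without Aucklandiae Radix low replicate 2, and 1 without medium replicate 2. The hepatocyte markers fell here too, 9 of 9 at the high dose against the low dose, with the list at 21316 to 21834 CPM against 47729 to 47814 CPM, and their part in the result was not tested.

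In mean summed levels the regulatory to core ratio was 1.21 at the high dose of Aucklandiae Radix (1.20 and 1.23 in its libraries), 1.01 at its low dose (1.00 and 1.01) and 1.01 at its medium dose. At the high dose of Polygalae Radix it was 1.03 and at its low dose 1.02, so both particles fell there in like proportion. Vehicle stood at 1.19 (1.17 to 1.21), apart from all low doses. Core transcripts had a median length of 889.5 bases and 47.2% GC, and regulatory transcripts 1357 bases and 48.8% GC.

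Because Polygalae Radix and Aucklandiae Radix carry the same set label and share no library, their high-against-low changes could be compared directly. All 31 members changed differently, each with the larger value in Aucklandiae Radix (31.4% of all genes were called in that direction and 60.1% in either). The median difference was 1.11. It was 2.08 ± 0.07 (SE, adjusted p = 1.1e-27) for PSMD2 and 2.02 ± 0.07 (SE, adjusted p = 1.2e-27) for PSMC4, and smallest for PSMD7 at 0.35 ± 0.07 (SE, adjusted p = 5.6e-05). All 31 remained called when any 1 of the 8 high- and low-dose libraries was left out. Across the 31 members the changes in the 2 extracts were weakly related (Pearson r = 0.21, Spearman rho = 0.13, a description over genes that share libraries). The doses differ in concentration and were set by inhibition, so potency is not compared.

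**Figure D3:**
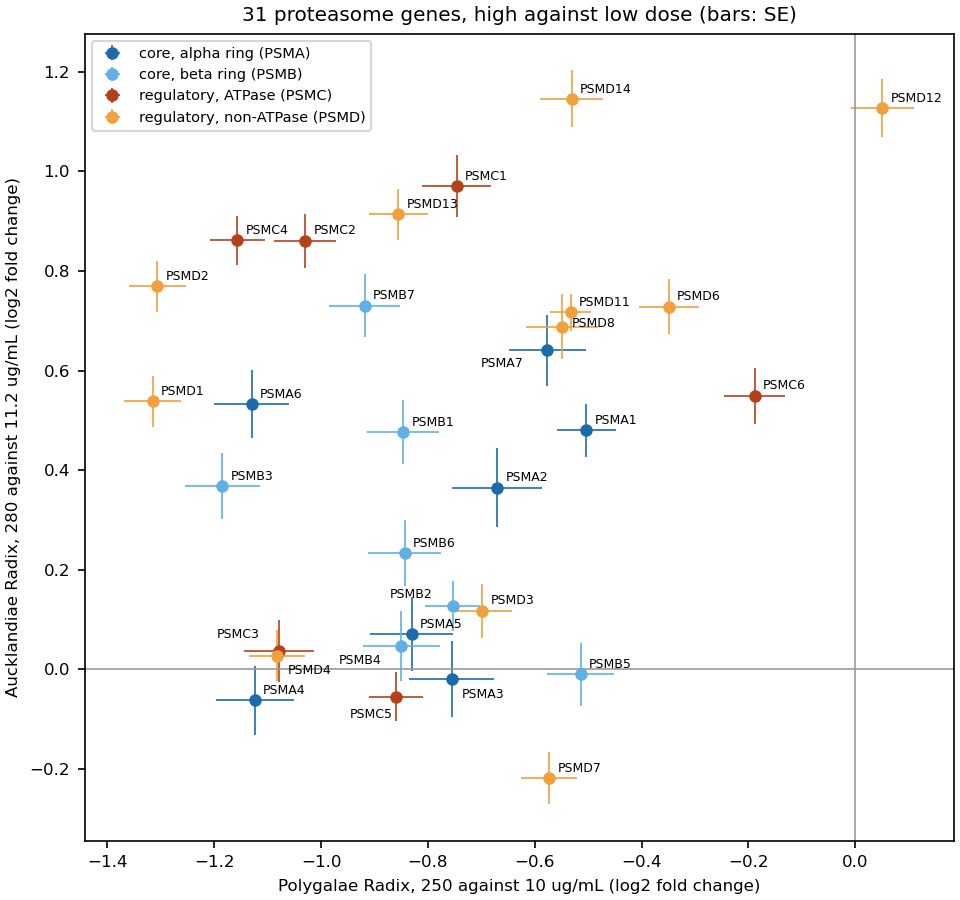
Log2 change at the high dose against the low dose of each member, Polygalae Radix on the x axis and Aucklandiae Radix on the y axis, with bars of 1 SE and the particles in different colours. All members except PSMD12 lie left of 0, and most lie above 0.

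In Menthae Herba the change was small and shared by nearly all members. At 500 against 20 ug/mL, 26 of 31 rose and none fell, with medians of 0.25 for all members, the core and the regulatory particle, where 10.8% of all genes were higher and 12.5% lower. None passed 0.5. PSMC4 was at 111, 111 and 111 CPM at the low and 140.1, 152 and 150.2 at the high dose, without overlap, and rose by 0.40 ± 0.04 (SE, adjusted p = 3.5e-11). The alpha subunit gene PSMA1 went from 96.5, 92.3 and 97.0 to 121, 121 and 118 CPM, and rose by 0.33 ± 0.04 (SE, adjusted p = 7.4e-08). The catalytic genes rose by 0.25 (PSMB5), 0.19 (PSMB6) and 0.16 (PSMB7), and PSMD14 by 0.27. The smallest called increases were 0.14 ± 0.04 (SE, adjusted p = 0.0086) for PSMD4 and 0.13 ± 0.05 (SE, adjusted p = 0.036) for PSMC6, and the latter was lost under several alternatives. No member was called at the medium dose by edgeR or by DESeq2 (all genes by edgeR, 0.118%). At an unadjusted edgeR p under 0.05 there were 8 members, and the share of all genes at that threshold was not computed.

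Saposhnikoviae Radix, of the same set and doses, had no member called at the high against the low dose by edgeR or by DESeq2. The median change of its members was 0.08, and 0.83% of all genes were called at the adjusted threshold. At an unadjusted edgeR p under 0.05 there were 10 members, 10 of them higher. The share of all genes at that unadjusted threshold was not computed, so this count has no background. The change in Menthae Herba exceeded that in Saposhnikoviae Radix for 8 members and was below it for none (all genes, 4.34% higher and 10.6% in either direction). They were PSMD13 (0.32 ± 0.06 SE), PSMC4, PSMA7, PSMB1, PSMD11, PSMA1, PSMD1 and PSMD2. The count was 5 without Menthae Herba high replicate 2 or Saposhnikoviae Radix high replicate 3, and up to 12 without another library. With the GC trend removed it was 15, where 2379 of all genes were called in place of 1803. For the other members the difference was not called.

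Guibi-tang raised 14 members and lowered 1 at its high dose against its low dose, with a median of 0.10 (all genes, 16.8% higher and 17.5% lower). PSMC4 was at 113, 112 and 110.1 CPM at the low and 156, 136 and 159 at the high dose, and rose by 0.43 ± 0.04 (SE, adjusted p = 4.2e-12). PSMC2 rose by 0.30 ± 0.04 (SE, adjusted p = 5.8e-07), and PSMC5 by 0.12 ± 0.04 (SE, adjusted p = 0.016), a call lost under several alternatives. PSMC3 fell by 0.14 ± 0.05 (SE, adjusted p = 0.025). PSMB7 (0.25), PSMB6 (0.14) and PSMD14 (0.24) rose, while PSMB5 (0.10) and PSMD4 (0.06) were not called. One library stood apart: in high-dose replicate 2 the core genes summed to 1815 CPM, against 2203 and 2211 in the other high-dose libraries, and its regulatory to core ratio was 1.18 against 1.01 in each of them. Without it 22 members rose and none fell, and the PSMC3 change was -0.09 (adjusted p = 0.23). The shares of all genes given above belong to the fit with all libraries, so the count of 22 has no share beside it. At the medium dose 7 members rose (all genes, 1.86% higher), PSMC2 most, by 0.24; the count was 3 without medium replicate 2 and 4 without medium replicate 1 or low replicate 2.

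Soyo-san raised 8 members at its high dose and lowered none, with a median of 0.14 (all genes, 2.13% higher and 1.83% lower). PSMC2 was at 68.4 and 70.3 CPM at the low and 85.3 and 87.1 at the high dose, and rose by 0.31 ± 0.06 (SE, adjusted p = 0.00014). PSMD11, a lid subunit, was at 154 and 149 and 183 and 183 CPM and rose by 0.27 ± 0.04 (SE, adjusted p = 2.3e-06). The smallest called increases were 0.21 ± 0.06 (SE, adjusted p = 0.047) for PSMC1 and 0.20 ± 0.05 (SE, adjusted p = 0.012) for PSMD2. The count was 2 without high replicate 2, 4 without either low-dose library and 6 without high replicate 1. In Saengmaek-san PSMD11 alone was called at the high against the low dose (log2 change 0.14 ± 0.03 (SE, adjusted p = 0.019), 0.436% of all genes called), and the call was lost without replicate 1 or 3 of either dose. The change in Guibi-tang exceeded that in Saengmaek-san for PSMC4 (0.32 ± 0.06 SE), PSMC2 (0.23) and PSMD14 (0.21), where 9.4% of all genes were called in that direction, and the count was 6 without Guibi-tang high replicate 2. Okbyeongpung-san has 1 library a dose and no test. Its high-dose library differed from its low-dose library by a median of 0.12 on the log2 scale (0.00 to 0.28), and no member passed 0.5 (all genes, 5% higher past 0.5).

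**Figure D4:**
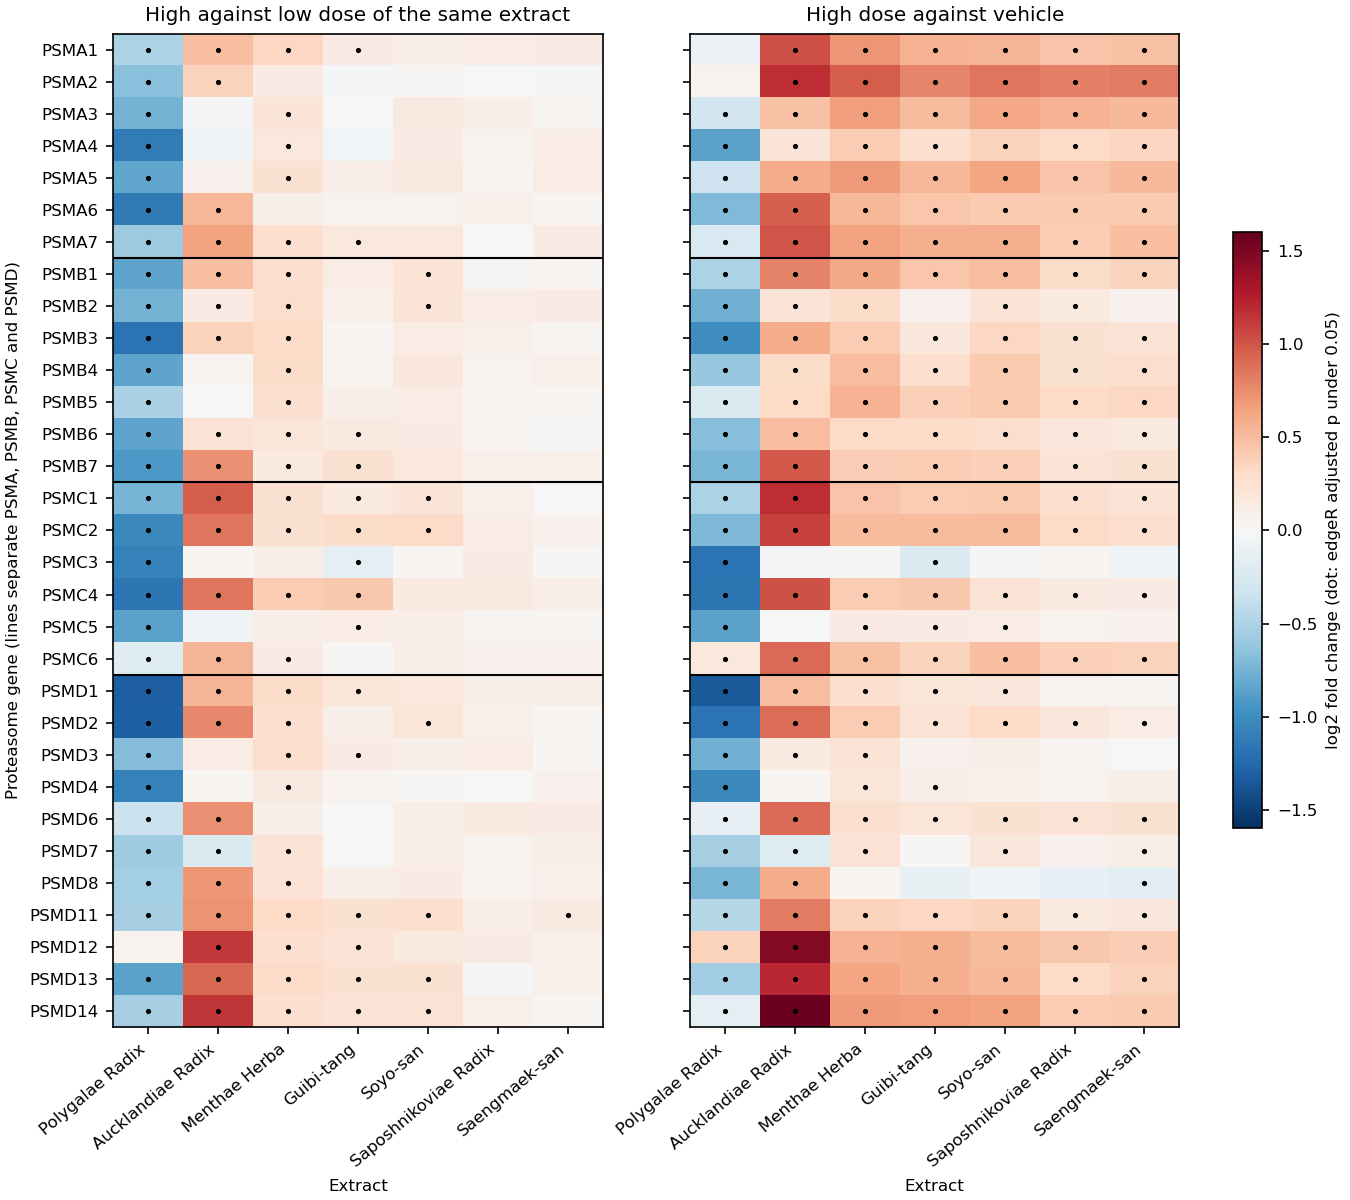
Log2 change of each member (rows, ordered by particle) at the high dose against the low dose and against vehicle (columns, 7 extracts each), blue to red, with dots on called changes. The Polygalae Radix columns are blue for nearly all members, and the Aucklandiae Radix columns are red for most. In both of the latter PSMC3, PSMC5 and PSMD4 have no dot and PSMD7 is blue, while PSMB5 is called against vehicle only.

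Vehicle stood apart from the low doses of every extract, most of all in the core particle. Of the 31 members, the number higher and lower at the low dose against vehicle was 21 and 1 for Polygalae Radix (all genes, 36.1% called), 23 and 0 for Aucklandiae Radix (33.3%), 19 and 1 for Menthae Herba (38%), 18 and 1 for Saposhnikoviae Radix (37.6%), 20 and 1 for Saengmaek-san (38.7%), 22 and 1 for Guibi-tang (40.1%) and 22 and 1 for Soyo-san (34.2%). These comparisons share the same 3 vehicle libraries. The alpha subunit PSMA2 had log2 differences of 0.73 to 0.85, and PSMD8, a lid subunit, of -0.25 to -0.10. Core medians were 0.27 to 0.32 and regulatory medians 0.04 to 0.12. Extract, set and the GC tilt of the vehicle libraries cannot be told apart here; with the GC trend removed, 15 to 20 members were higher and the medians were 0.09 to 0.17. Leaving out Soyo-san low replicate 2 gave 15 called members in place of 23.

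The high doses of the milder extracts against vehicle hold that same difference. Members higher and lower were 29 and 0 for Menthae Herba (all genes, 24% higher and 24.2% lower), 24 and 0 for Saposhnikoviae Radix (20.2% higher and 19.9% lower), 24 and 1 for Saengmaek-san (20.5% higher and 20% lower), 26 and 1 for Guibi-tang (25.6% higher and 25.4% lower) and 27 and 0 for Soyo-san (19.8% higher and 19% lower). With the pooled low doses as the reference in place of vehicle, 3 members were called for Saposhnikoviae Radix (all genes, 2.96%), 1 for Saengmaek-san (0.972%) and 17 for Guibi-tang (44.7%). For Menthae Herba and Soyo-san the counts stayed within 1.5 times those against vehicle. The Okbyeongpung-san high-dose library lay above the vehicle mean by a median of 0.33, with 5 members past 0.5 (all genes, 6.54%). At the medium and low dose 4 and 1 members passed (all genes, 6.82% and 6.81%).

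Genes around the proteasome, from lists of the pathway, were taken at the high dose against the low dose. Their counts stand beside shares of all genes of 31.1% higher and 33% lower in Polygalae Radix, 33.9% and 35.5% in Aucklandiae Radix, 10.8% and 12.5% in Menthae Herba and 16.8% and 17.5% in Guibi-tang, and counts of a few genes in a short list near those shares are no result about the list. Of the 5 immunoproteasome and tissue-specific subunits listed, 3 passed the filter and all 3 fell in Aucklandiae Radix, where most constitutive subunits rose. PSMB9 was at 4.26 and 3.10 CPM at the low and 0.753 and 0.663 at the high dose (log2 change -2.38 ± 0.24 (SE, adjusted p = 4.0e-12)), and PSMB8 changed by -1.67. The same 3 fell in Polygalae Radix (PSMB9 by 1.43, PSMB8 by 0.77), 2 fell in Guibi-tang and none was called in Menthae Herba. PSME1 and PSME2, which form the interferon-inducible activator of the core, fell in Polygalae Radix (-1.56 and -0.89), Aucklandiae Radix (-1.13 and -1.05) and Guibi-tang (-0.62 and -0.56). Of the 5 activator and inhibitor genes 3 fell in Polygalae Radix, and 2 rose and 3 fell in Aucklandiae Radix.

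Among the other 26S genes, ADRM1, a ubiquitin receptor of the base, was at 174 and 178 CPM at the low and 533 and 502 at the high dose of Aucklandiae Radix and rose by 1.55 ± 0.09 (SE, adjusted p = 9.0e-21). The deubiquitinase USP14 rose there by 0.56 and fell by 0.67 in Polygalae Radix, and of these 4 genes 3 rose and 1 fell in Aucklandiae Radix, 2 fell in Polygalae Radix and 3 rose in Menthae Herba. Of the 5 core assembly chaperones, 2 rose and 3 fell in Aucklandiae Radix, with POMP, the maturation factor of the core, from 61.2 and 65.1 to 127 and 128 CPM (log2 change 1.01) and PSMG4 at -1.05. In Polygalae Radix 3 rose and 1 fell (PSMG3 0.66, PSMG4 0.65). Of the 4 regulatory particle chaperones, 2 fell in Polygalae Radix (PSMD10 -1.33, PAAF1 -1.10), and 1 rose (PSMD9 1.00) and 2 fell in Aucklandiae Radix.

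The factors that read the antioxidant response element were measured as transcripts only. NFE2L1 was at 241 and 257 CPM at the low and 261 and 238 at the high dose of Polygalae Radix (log2 change -0.00, adjusted p = 0.95), and at 259.8 and 268 and 290.0 and 293 CPM in Aucklandiae Radix (0.14, adjusted p = 0.02, a call lost under some alternatives). NFE2L2 rose in Polygalae Radix, from 242 and 241 to 383 and 414 CPM (0.71), and fell in Aucklandiae Radix, from 252 and 238 to 150.3 and 159 (-0.67). VCP, the ATPase that extracts NFE2L1 from the endoplasmic reticulum, changed by -1.61 in Polygalae Radix and 0.69 in Aucklandiae Radix. Of the 7 genes of this list, 1 rose and 3 fell in Polygalae Radix, 3 rose and 2 fell in Aucklandiae Radix, 1 rose and 3 fell in Menthae Herba, and 2 rose and 2 fell in Guibi-tang. Members with TGACNNNGC in a promoter window had a median high-against-low change of 0.37 in Aucklandiae Radix (n = 7), and those without of 0.53 (n = 19). In Polygalae Radix the medians were -1.12 and -0.75. In Menthae Herba they were 0.28 and 0.24, in Guibi-tang 0.14 and 0.09, in Soyo-san 0.13 and 0.14, in Saposhnikoviae Radix 0.09 and 0.08 and in Saengmaek-san 0.08 and 0.07. The ranges of the members with and without the letters overlapped in all 7 extracts, and 5 members had no window. Whether the letters have a part in the changes was not tested, and overlap of ranges cannot decide it. Among the sequences printed above, PSMD12, PSMD3 and PSMB3 hold the letters, with log2 changes of 1.13, 0.12 (not called) and 0.37 in Aucklandiae Radix.

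Of 5 ubiquitin and activating enzyme genes, 4 fell and none rose in Polygalae Radix, with UBA1, the main activating enzyme, at -1.48 and UBB, a polyubiquitin gene, at -1.18. In Aucklandiae Radix 2 rose and 1 fell, with UBB from 493 and 483 to 819 and 743 CPM (0.67). In Menthae Herba 2 rose, the activating enzyme UBA6 by 0.29, and in Guibi-tang 1 rose and 4 fell. Among 6 ubiquitin shuttles, ZFAND5 rose in both Polygalae Radix (1.04) and Aucklandiae Radix (1.42), where 1 rose and 3 fell, and 3 rose and 2 fell. Of the 7 genes for aggregate handling and cytosolic heat shock, all 7 rose in Aucklandiae Radix, HSPA1A from 75.9 and 75.4 to 4503 and 3381 CPM (5.70), while 3 rose and 3 fell in Polygalae Radix (HSPA1A -1.17). SQSTM1, a receptor for ubiquitinated aggregates, rose in Guibi-tang by 1.36, against a member median of 0.10 there, and in Menthae Herba by 0.82. In Saposhnikoviae Radix no gene of these lists was called, and in Saengmaek-san and Soyo-san 1 gene of the heat shock list rose.

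**Figure D5:**
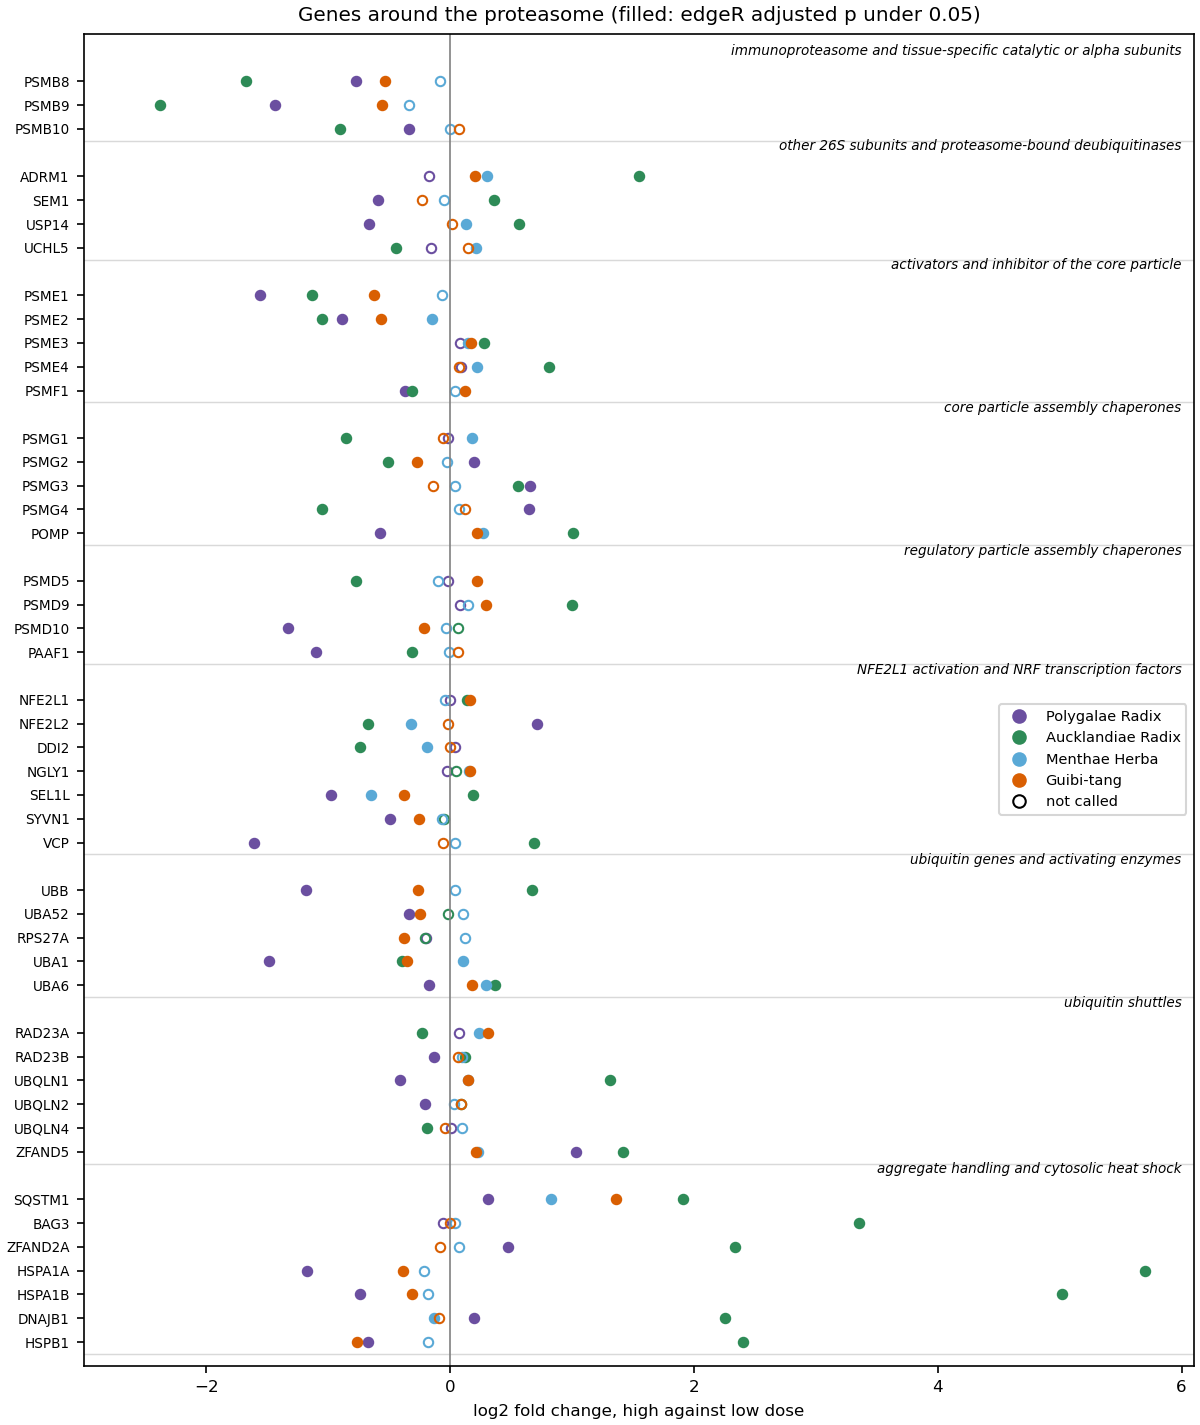
Log2 change at the high dose against the low dose of the genes of each pathway list (rows) in 4 extracts (colours), with 1 point per gene and filled points for called changes. The heat shock genes rise in Aucklandiae Radix and the 3 immunoproteasome genes lie below 0 in Polygalae Radix and Aucklandiae Radix.

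Some members share bases with another gene, and the strand setting of the counting is not given in the sources used here. Over all libraries the opposite-strand neighbour's count was 79.1% of the member's for PSMC5 (FTSJ3), 65.3% for PSMC2 (DNAJC2), 55% for PSMA2 (MRPL32), 30.6% for PSMA3 (PSMA3-AS1), 26.4% for PSMD13 (SIRT3) and 25.9% for PSMC1 (NRDE2), and the pseudogene PSMC1P1 held 8.27% of the count of PSMC1. AC010132.3, a protein-coding gene that overlaps PSMA2 on the same strand, had 12.8% of the count of PSMA2. The percentages take the whole count of the other gene and do not measure how much of a member's count is shared. Values of these members are uncertain, to an extent that was not tested.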

How the data were processed

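The submitters' processing notes name Trim Galore 0.6.5, FastQC 0.11.9, RSEM 1.3.3 and STAR 2.7.3a, with the build hg38. The authors deposited expected counts per gene, which need not be whole; they were rounded to whole numbers. Which annotation and strand option the counting used is not given in the sources used here, and genes were placed by GENCODE release 29. Counts were scaled by the trimmed mean of M-values, filtered with filterByExpr (minimum count 10) and tested in 1 edgeR 4.0.16 quasi-likelihood fit (R 4.3.3, limma 3.58.1) over 57 libraries in 22 groups, with 35 residual degrees of freedom, 16982 genes and a common coefficient of variation of 4.65%. P-values were adjusted by Benjamini-Hochberg over all genes tested, and SE is the log2 change divided by the square root of F. Okbyeongpung-san, with 1 library a dose, stayed out of the fit.

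The members and gene lists were chosen with earlier results of these data known. In each extract the 2 highest and 2 lowest called members are given in full, beside PSMB5, PSMB6, PSMB7, PSMD4, PSMD14, NFE2L1 and NFE2L2, and up to 2 genes of each list with the largest changes; the other members named are given as examples. The fit was tested on simulated data, and no pair of libraries of a group agreed within sampling noise. Alternatives were another scaling (relative log expression), no filter, a replicate block, removal of a GC and length trend, pooled low doses as reference, DESeq2 1.42.0 and leaving out each library. Hot-water extracts and wortmannin were not analysed here. 1 gene of the ubiquitin list is not reported here.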

Additional observations from a re-analysis of the deposited data

Results flagged for a closer look

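Dose responses differed between extracts of the same labelled set, by a test of the difference between the 2 high-against-low changes in edgeR with adjustment over all genes. For Aucklandiae Radix minus Polygalae Radix the difference was called for 31 members (all genes, 31.4% higher and 60.1% in either direction). For PSMD2 it was 2.08, from a rise of 0.77 in Aucklandiae Radix and a fall of 1.31 in Polygalae Radix. For Menthae Herba minus Saposhnikoviae Radix the difference was called for 8 members (all genes, 4.34% higher and 10.6% in either direction). For PSMD13 it was 0.32, from changes of 0.30 and -0.02. For Guibi-tang minus Saengmaek-san the difference was called for 3 of 31 members (all genes, 9.4% higher and 19.6% in either direction). That count does not set the members apart from all genes. For PSMC4 the difference was 0.32, from changes of 0.43 and 0.11. The last count was 6 without Guibi-tang high replicate 2.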

How the results depend on the processing

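Of 452 called gene values, 333 of them members of the proteasome set, 320 kept direction and call under every alternative run for them. Relative log expression scaling left every count of called members within 1.5 times its value. With the GC and length trend removed, the count of called members was 4 for the high against the low dose of Saposhnikoviae Radix in place of 0, 7 for the medium against the low dose of Aucklandiae Radix in place of 3, 15 in place of 8 for Menthae Herba minus Saposhnikoviae Radix and 8 in place of 3 for Guibi-tang minus Saengmaek-san. Calls over all genes grew as well, in the same order to 351 from 141, 1138 from 739, 2379 from 1803 and 4070 from 3320. In that setting the gap between the medians of the regulatory and core particles against vehicle was 0.16 for Aucklandiae Radix in place of 0.30, and -0.14 for Saengmaek-san in place of -0.22. Taking pooled low doses as the reference, the high-dose counts were 3 in place of 24 (Saposhnikoviae Radix), 1 in place of 25 (Saengmaek-san) and 17 in place of 27 (Guibi-tang). The counts of the other 4 tested extracts stayed within 1.5 times their values. Without the filter on low counts no member was called for Saengmaek-san at the high against the low dose (1 with it). DESeq2 called 6 for the medium dose of Aucklandiae Radix and 14 for Menthae Herba minus Saposhnikoviae Radix. Calls over all genes by DESeq2 are not given here, so these 2 counts have no background. At a log2 difference of 1 in place of 0.5, 0 members passed in place of 1, 4 and 5 for the low, medium and high dose of Okbyeongpung-san against vehicle. The cause was not tested.

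The main fit did not pair libraries by replicate number. Deviations of same-numbered libraries of a set correlated at -0.08 to 0.25, with set medians of -0.0047 to 0.0098. The value of 0.25 was in set 11, so a pair of libraries there shared some variation. With the replicate block the counts for the high against the low dose were 10 (Soyo-san, in place of 8), 30 (Polygalae Radix), 22 (Aucklandiae Radix), 26 (Menthae Herba), 0 (Saposhnikoviae Radix), 15 (Guibi-tang) and 1 (Saengmaek-san), and no count of the other comparisons left 1.5 times its value. With the block and the GC trend removed together, they were 4 for Saposhnikoviae Radix, 6 and 12 for the medium doses of Aucklandiae Radix and Guibi-tang, and 15 and 8 for the last 2 differences between extracts.

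Of the gene values, 10 changed sign under at least 1 alternative. PSMC6 in Polygalae Radix against vehicle was at -0.0151 with the GC trend removed, -0.0250 with the block as well and -0.171 with pooled low doses. PSMA4 in Aucklandiae Radix against vehicle was at -0.0842, -0.0749 and -0.0486 in the same settings. With pooled low doses PSMA3 in Aucklandiae Radix was at -0.000973, PSMA2 and PSMB1 in Saposhnikoviae Radix at -0.000501 and -0.0224, PSMB6, PSMD2 and PSMD8 in Saengmaek-san at -0.0200, -0.00123 and 0.0200, and PSMA2 in Guibi-tang at -0.0242. The value of UBA6, Polygalae Radix high against Polygalae Radix low, -0.175 with all libraries, ran from -0.380 to 0.00226 as single libraries were left out.

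Leaving out 1 library at a time, called members at the high dose against vehicle were 24 to 28 (Soyo-san), 26 to 29 (Polygalae Radix), 26 to 28 (Aucklandiae Radix), 29 (Menthae Herba), 24 (Saposhnikoviae Radix), 25 to 28 (Guibi-tang) and 23 to 26 (Saengmaek-san). At the low dose against vehicle they were 15 to 22 (Soyo-san), 18 to 22 (Polygalae Radix), 19 to 23 (Aucklandiae Radix), 19 to 21 (Menthae Herba), 16 to 20 (Saposhnikoviae Radix), 20 to 23 (Guibi-tang) and 17 to 21 (Saengmaek-san). At the high against the low dose they were 2 to 6 (Soyo-san), 29 to 30 (Polygalae Radix), 20 to 22 (Aucklandiae Radix), 23 to 26 (Menthae Herba), 0 (Saposhnikoviae Radix), 10 to 22 (Guibi-tang) and 0 to 1 (Saengmaek-san). At the medium against the low dose they were 0 (Soyo-san), 3 to 11 (Polygalae Radix), 0 to 2 (Aucklandiae Radix), 0 (Menthae Herba), 0 (Saposhnikoviae Radix), 3 to 7 (Guibi-tang) and 0 (Saengmaek-san). Between extracts they were 31 (Aucklandiae Radix minus Polygalae Radix), 5 to 12 (Menthae Herba minus Saposhnikoviae Radix) and 2 to 6 (Guibi-tang minus Saengmaek-san). The low end of Soyo-san high against low, 2, came without its high replicate 2, and that of the medium dose of Polygalae Radix, 3, without its low replicate 2. In groups of 2, the lone library left is assumed to vary like the other groups. With 2 or 3 libraries a group, the number of libraries limits the precision.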

Other observations

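Across the 31 members, the sizes of the high-against-low changes were more alike between some extracts than others, given as a description over genes that share libraries within each extract. Aucklandiae Radix and Guibi-tang had a Pearson r of 0.65 and a Spearman rho of 0.66, with the ATPase genes PSMC4 and PSMC2 among the larger increases in both. Guibi-tang and Soyo-san had values of 0.64 and 0.66, Guibi-tang and Menthae Herba 0.63 and 0.55, and Menthae Herba and Soyo-san 0.60 and 0.59. The Guibi-tang changes include high-dose replicate 2, the library that stood apart, and the likeness was not computed without it. Polygalae Radix was near 0 with Guibi-tang (0.00 and -0.01), with Menthae Herba (-0.03 and -0.02) and with Soyo-san (-0.02 and -0.08).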
